A study of Homo sapiens with 24 samples.

Results

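The 10 alpha- and beta-tubulin genes examined here were TUBA1A, TUBA1B, TUBA1C and TUBA4A, which encode alpha-tubulins, and TUBB, TUBB2A, TUBB2B, TUBB3, TUBB4B and TUBB6, which encode beta-tubulins. They were listed by name, with earlier results of these data known, and each was matched by its Ensembl identifier to a row of 58721 genes. All 10 were counted in each of 24 RNA-seq libraries and passed the filter on low counts in each comparison. The libraries came from A549, an established human lung adenocarcinoma cell line labelled wild type in the controls. In the first experiment, cells received siRNA against MYBL2 (siMYBL2, n = 4), siRNA against FOXM1 (siFOXM1, n = 4) or scrambled siRNA (siControl, n = 4). In the second, they received siRNAs against both genes (siBoth, n = 3) or scrambled siRNA (siControl_Both, n = 3). In the third, cells were exposed to 20 µM FDI-6, an inhibitor of the forkhead domain of FOXM1, for 24 h (FDI-6, n = 3) or belonged to its own control (control_FDI6, n = 3), which the study calls DMSO, the usual solvent of such compounds. The siRNA dose was 25 nM, and how it was divided in siBoth is not given in the sources used here. MYBL2 and FOXM1 are transcription factors of the cell cycle, and the comparisons ask how tubulin transcripts changed when either or both were depleted or when FOXM1 was inhibited.

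Microtubules are polymers of alpha- and beta-tubulin heterodimers that form the mitotic spindle, the tracks of intracellular transport and the core of cilia. Several genes encode near-identical isotypes of each subunit. Newly made subunits are folded by prefoldin, the CCT chaperonin and a set of cofactors before they pair, and the cell lowers its tubulin mRNAs when free tubulin rises. TUBB3 and TUBA1A are best known for their high levels in neurons, whereas TUBA1B, TUBA1C, TUBB and TUBB4B are broadly expressed in dividing cells.

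The libraries held 16487394 to 30140550 read pairs assigned to genes, and the members together took 0.132% to 0.323% of them. The epithelial and A549 marker genes were present (KRT8 at 1599 to 5656 CPM, the TMM-scaled read pairs per library size of 1000000), while CD3E was at 0 in each library. The targeted genes fell as the labels state. MYBL2 was at 4.61 to 8.74 CPM in siMYBL2 against 133 to 178 in siControl, and FOXM1 was at 10.3 to 13.2 CPM in siFOXM1 against 108 to 139. In siBoth, MYBL2 was at 4.91% and FOXM1 at 9.67% of the control mean. FOXM1 was at 60.2% of control in siMYBL2 also, and with FDI-6 the FOXM1 and MYBL2 transcripts were at 77.6% and 70.1%. In siBoth, 9.09% to 10.9% of read pairs were not aligned, and in siControl_Both 7.68% to 7.92%, so treated and control libraries did not overlap. The other libraries had 1.73% to 3.03%. The part of this in the results was not tested.

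The isotypes differ in how much of their transcript can be read without ambiguity, which limits the levels below. Pairs matching several places in the genome, or overlapping several genes, were not assigned to a gene. Windows of 150 bases, the read length, were slid along each canonical transcript and searched for in the hg38 genome and in the GENCODE V44 transcripts. For TUBB4B and TUBB6, 100% of windows occurred once, and for TUBA1A 92.0% did. The share was 80.9% for TUBB, 74.8% for TUBA4A and 74.5% for TUBA1C. TUBB2A and TUBB2B shared 714 windows with each other, which left 51.3% and 58.4% found once. For TUBA1B the share was 35.8%, since 949 of its 1478 windows also lie in the antisense transcript TUBA1B-AS1, which itself had 0 to 5 read pairs in a library. For TUBB3 it was 7.7%, since 1437 of 1557 windows lie in a readthrough gene (ENSG00000198211) on the same strand. Whether HTSeq used strand is not given in the sources used here; without strand, a gene and its antisense partner cannot be told apart. The 50 tubulin pseudogenes together held 0.518 to 1.46 read pairs per 1000 on the members. The readthrough gene had 0 counts in each library. These limits bear first on levels compared between genes.

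**Figure D1:**
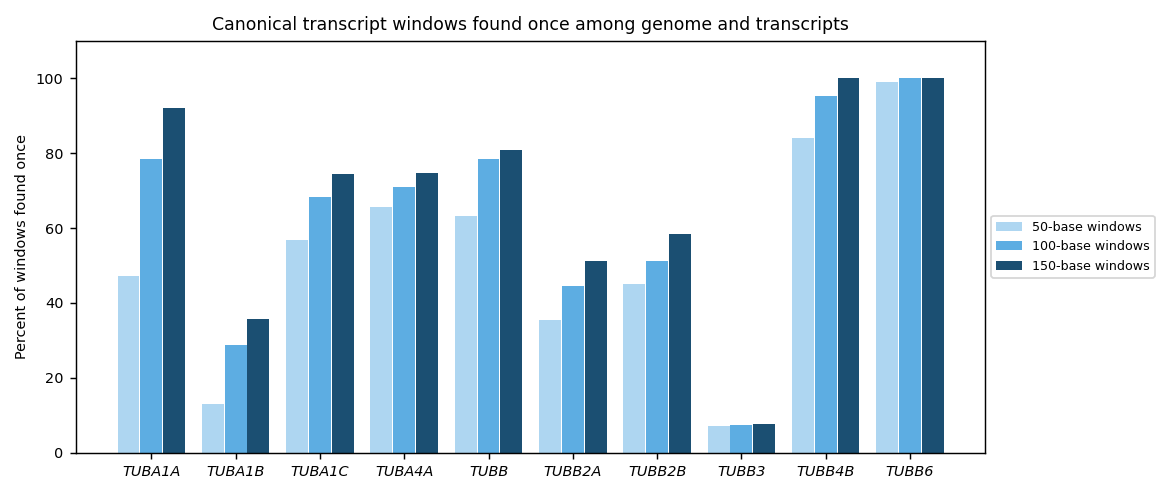
The percent of windows along each member's canonical transcript that occurred once (vertical axis) is shown for windows of 50, 100 and 150 bases. TUBB4B and TUBB6 reach 100% at 150 bases, while TUBA1B stays at 35.8% and TUBB3 at 7.7%.

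The promoters are shown for 4 of the members. TUBA1B and TUBA1C fell furthest in siMYBL2 and siBoth, TUBB4B fell in siMYBL2, and TUBA1A rose in siBoth. Each line is the 250 bases before the RefSeq start of the gene (GRCh38.p14), read 5′ to 3′ on the gene's own strand. Capitals mark CCAAT, the CCAAT box, and TTTGAA, the core of the cell cycle homology region found in promoters of cell cycle genes. The positions are chr12:49131396-49131645 on the minus strand for TUBA1B, chr12:49264832-49265081 on the plus strand for TUBA1C, chr9:137241037-137241286 on the plus strand for TUBB4B and chr12:49189081-49189330 on the minus strand for TUBA1A.
TUBA1B: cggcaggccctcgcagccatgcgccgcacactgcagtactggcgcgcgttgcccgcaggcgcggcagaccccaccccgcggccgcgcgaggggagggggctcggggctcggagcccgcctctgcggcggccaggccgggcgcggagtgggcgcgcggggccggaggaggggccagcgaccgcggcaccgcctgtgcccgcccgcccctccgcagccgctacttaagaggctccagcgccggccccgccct
TUBA1C: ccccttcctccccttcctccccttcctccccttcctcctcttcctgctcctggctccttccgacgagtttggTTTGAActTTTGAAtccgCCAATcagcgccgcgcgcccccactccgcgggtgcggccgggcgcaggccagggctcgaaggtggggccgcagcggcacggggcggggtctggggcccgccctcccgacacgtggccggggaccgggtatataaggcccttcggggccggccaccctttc
TUBB4B: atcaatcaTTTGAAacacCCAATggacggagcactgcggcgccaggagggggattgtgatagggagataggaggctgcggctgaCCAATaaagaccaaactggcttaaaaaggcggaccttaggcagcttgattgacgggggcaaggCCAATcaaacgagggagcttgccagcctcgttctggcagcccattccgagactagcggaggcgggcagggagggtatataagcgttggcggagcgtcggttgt
TUBA1A: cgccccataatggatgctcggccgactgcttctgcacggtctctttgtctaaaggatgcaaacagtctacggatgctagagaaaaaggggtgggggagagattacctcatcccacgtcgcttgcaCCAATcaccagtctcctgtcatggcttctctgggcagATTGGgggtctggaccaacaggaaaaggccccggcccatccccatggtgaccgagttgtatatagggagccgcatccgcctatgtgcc
The TUBA1C promoter held TTTGAA at 178 to 173 and again at 170 to 165 bases before the start, with CCAAT at 160 to 156. The TUBB4B promoter held TTTGAA at 242 to 237 and 3 CCAAT matches. TUBA1A had 2 CCAAT matches and no TTTGAA, and TUBA1B had neither but held 3 matches of the GC box GGGCGG. On either strand, TTTGAA was found in 2 of 10 members and in 13.3% of 35116 human promoters of the same length. Both of these members are among those shown, whereas TUBB and TUBB6, which also fell in siMYBL2, had no TTTGAA and are not shown. CCAAT was found in 7 of 10 and in 32.0%, and GGGCGG in 8 of 10 and in 42.6%. The variant TTCGAA was found in TUBB3 only among the members and in 1.19% of promoters. The MYB-type letters AACGG were found in TUBB6 only among the members and in 16.5% of promoters, and the forkhead-type letters GTAAACA in none of the 10 and in 2.98%. Of the GGGCGG matches in TUBA1B, those at 54 to 49 and 50 to 45 bases before the start share 2 bases. A match is a description of the letters only.

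Levels between isotypes were compared as CPM per kb of exon. In siControl, TUBB4B was at 259 ± 24.9 (SD, n = 4) and TUBB at 203 ± 18.9 CPM per kb. The alpha genes followed, with TUBA1B at 54.0 ± 6.41, TUBA1C at 51.4 ± 8.60, TUBA1A at 43.0 ± 6.35 and TUBA4A at 37.8 ± 9.11 CPM per kb. The ranges of these 4 neighbours overlapped between libraries. As shares of the alpha total within each library, TUBA1B held 28.1% to 29.98%, above TUBA1A at 19.3% to 26.3% and TUBA4A at 17.8% to 23.6%, while it overlapped with TUBA1C at 26.1% to 29.9%. When scaled by the windows found once, TUBA1B held 51.2% to 53.7% of the alpha total, and the other 3 had means of 14.0% to 17.0%. That scale leaves out the 949 TUBA1B windows shared with the antisense TUBA1B-AS1. If HTSeq used strand, pairs there were still counted, and the scale overstates TUBA1B. TUBB6 was at 28.4 ± 4.61, TUBB2A at 6.49 ± 0.698, TUBB2B at 2.24 ± 0.669 and TUBB3 at 0.411 ± 0.0814 CPM per kb. TUBB4B and TUBB therefore held 51.9% and 40.6% of the beta-tubulin total in siControl, and TUBB3 held 0.08%. The order of TUBB4B and TUBB depends on the length used. Scaled by windows found once they held 40.2% and 46.5%, with no scaling by length 35.3% and 55.2%, and by the length of the canonical transcript 45.4% and 44.2%. TUBB3 held 2.72% by windows found once. On TMM-scaled CPM of the same gene, the 3 control groups also differed: TUBA1A was at 217 ± 8.53 in siControl_Both but at 90.3 ± 2.42 in control_FDI6, and TUBB4B was at 487 ± 65.2 against 902 ± 14.9. The experiments cannot be told apart from what else differed between them, so each treatment was set against its own control only.

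**Figure D2:**
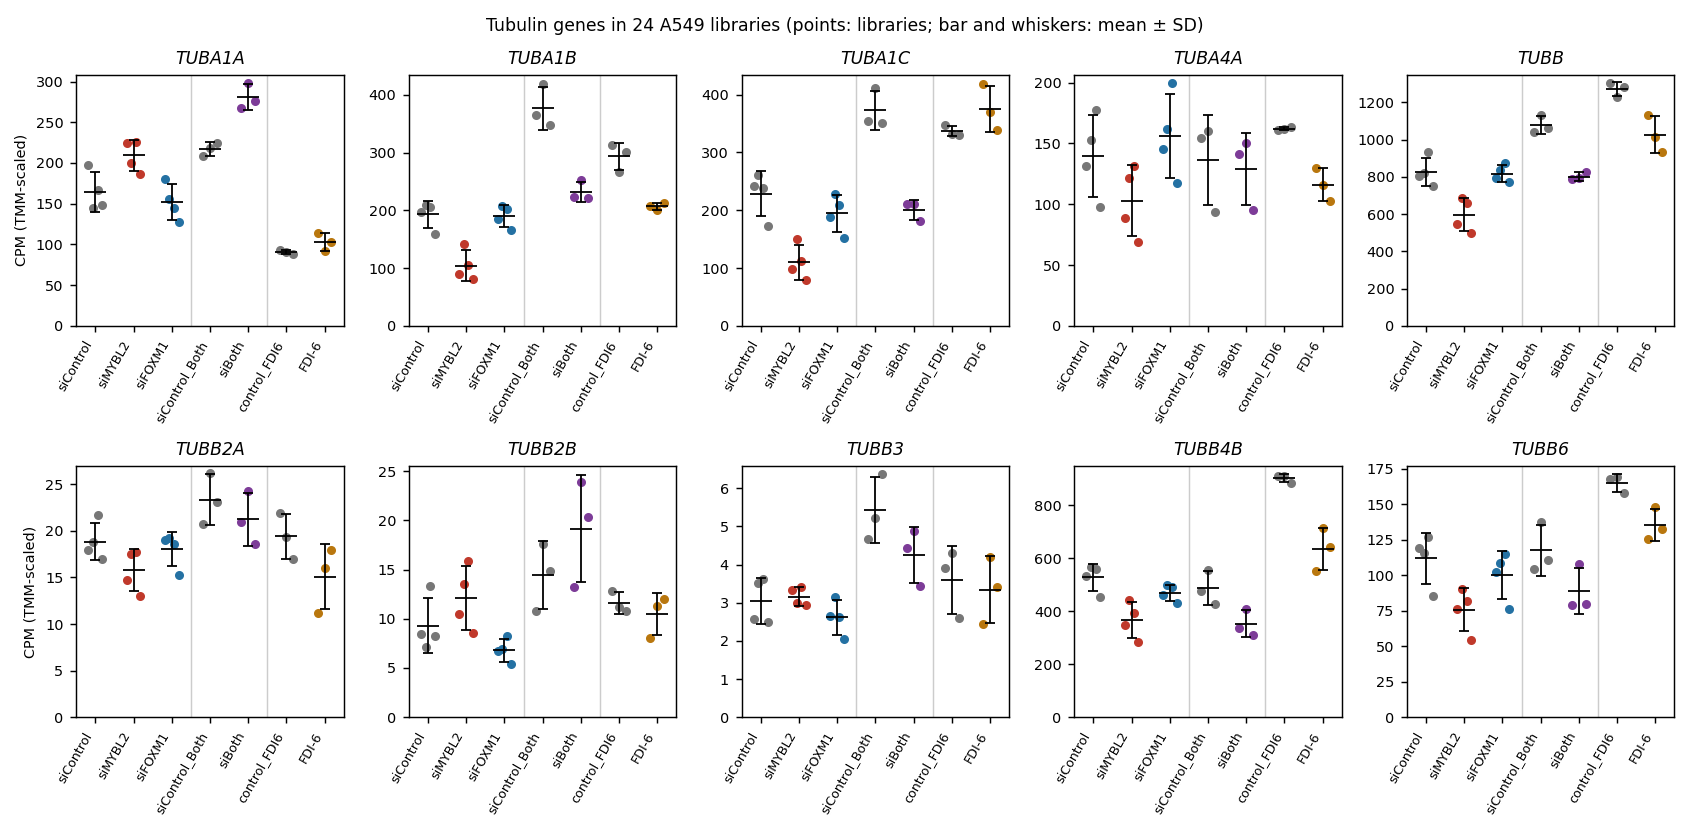
Each panel gives the CPM of 1 tubulin gene (vertical axis, linear, from 0) in the 24 libraries by group, with controls in grey and the mean ± SD in black. TUBA1B and TUBA1C lie below their controls in siMYBL2 and siBoth, while TUBA1A lies above its control in siBoth.

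In siMYBL2, 2 alpha-tubulin and 3 beta-tubulin transcripts fell. TUBA1C and TUBA1B fell to 48.2% and 54.0% of siControl, and TUBB, TUBB4B and TUBB6 fell to 72.4%, 69.5% and 67.8%. TUBA1A was at 127% of control, short of the threshold without pairing. In all, 5 of 10 members passed an adjusted p of 0.05 as lower, where 9.53% of 16065 genes did, and 0 of 10 as higher, where 8.53% did. TUBA1B and TUBA1C also passed a fold change of 1.5, as 7.9% of genes did in either direction. The median log2 fold change was -0.45 over the members and 0.01 over all genes tested. In bulk RNA, less transcript per cell and fewer cells with it cannot be told apart.

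TUBA1C, a broadly expressed alpha-tubulin, was at 98.8, 151, 112 and 79.3 CPM in siMYBL2 replicates 1 to 4 and at 242, 261, 239 and 173 in siControl. The groups did not overlap, and each siMYBL2 library lay below the control of the same number. Its log2 fold change was -1.05 ± 0.20 (SE, n = 4 against 4; edgeR adjusted p = 0.0071). TUBA1B, a broadly expressed alpha-tubulin of dividing cells, was at 89.1, 142, 105 and 80.5 CPM against 197, 209, 206 and 160 CPM. Again no siMYBL2 library reached the lowest control, and the log2 fold change was -0.89 ± 0.17 (edgeR adjusted p = 0.0083). In each of the 8 fits that left out 1 library, both genes passed.

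TUBA1A, an alpha-tubulin of neurons and developing tissue, was at 224, 200.3, 226 and 187 CPM in siMYBL2 and at 198, 144, 167 and 149 in siControl. The groups overlapped, since control replicate 1 exceeded siMYBL2 replicate 4, but each siMYBL2 library was above the control of the same number. The log2 fold change was 0.35 ± 0.11 (edgeR adjusted p = 0.058; 0.037 by DESeq2). With the replicate number as a block, a fit that compares same-numbered libraries, it was 0.36 with an edgeR adjusted p of 4.05e-05. TUBA4A, an alpha-tubulin encoded without the terminal tyrosine of the other isotypes, was at 89.1, 122, 132 and 68.9 CPM against 131, 152, 177 and 97.8 CPM. Libraries of the same number deviated together, the groups overlapped, and its log2 fold change was -0.44 ± 0.23 (edgeR adjusted p = 0.22; 3.49e-06 with the replicate block).

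Among the beta-tubulins, TUBB was at 546, 685, 660 and 497 CPM in siMYBL2 and at 803, 821, 932 and 749 in siControl, without overlap. Its log2 fold change was -0.47 ± 0.12 (edgeR adjusted p = 0.025). TUBB4B was at 347, 443, 394 and 282 CPM against 532, 566, 558 and 455 CPM, also without overlap, with a log2 fold change of -0.52 ± 0.14 (edgeR adjusted p = 0.028). TUBB6, a divergent beta-tubulin, was at 76.3, 90.6, 81.6 and 54.6 CPM against 119, 116, 127 and 85.5 CPM. Here siMYBL2 replicate 2 exceeded control replicate 4, and the log2 fold change was -0.56 ± 0.17 (edgeR adjusted p = 0.047). TUBB and TUBB4B each kept an adjusted p under 0.05 in 4 of 8 fits without 1 library, and TUBB6 in 2 of 8.

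The beta-tubulins of low level did not pass. TUBB2A had a log2 fold change of -0.25 (edgeR adjusted p = 0.20), TUBB2B of 0.38 (adjusted p = 0.32) and TUBB3 of 0.05 (adjusted p = 0.88). TUBB2A and TUBB2B are near-identical copies, and their values are uncertain for that reason. TUBB2B was higher in siMYBL2 in 4 of 4 same-numbered pairs and TUBB2A lower in 4 of 4. With the replicate block, 7 of 10 members were lower, where 23.1% of genes were, and 2 of 10, TUBA1A and TUBB2B, were higher, where 23.6% were. TUBB3 was the member that did not pass there.

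FOXM1 knockdown gave small differences that did not pass. By edgeR, 0 of 10 members were lower, where 1.09% of 15892 genes were, and 0 of 10 higher, where 0.277% were. None had an unadjusted p under 0.05 either, and DESeq2 also gave 0 members past the threshold, with 1 at an unadjusted p under 0.05. The share of all genes that also passed a fold change of 1.5 was 0.667%. The largest log2 fold change was that of TUBB2B, at -0.46 ± 0.21 (edgeR adjusted p = 0.41), with 6.72, 6.89, 8.24 and 5.37 CPM in siFOXM1 and 8.50, 7.09, 13.4 and 8.28 in siControl. TUBA1B was at 185, 208, 202 and 166 CPM against the same control values as above, a log2 fold change of -0.03 ± 0.11 (adjusted p = 0.96). TUBA1C was at 189, 227, 210 and 151 CPM, lower than the control of the same number in 4 of 4 pairs, with a log2 fold change of -0.24 ± 0.15 (adjusted p = 0.59).

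With the replicate block, 5 of 10 members were lower in siFOXM1, where 14.0% of genes were, and 1 of 10 higher, where 12.3% were. TUBA1C (log2 fold change -0.24, edgeR adjusted p = 2.64e-06), TUBB4B (-0.17, 8.33e-05), TUBB6 (-0.16, 0.00069), TUBB2B (-0.45, 0.0011) and TUBA1A (-0.12, 0.027) were lower. TUBA4A was higher, by 0.16 (edgeR adjusted p = 0.00071), at 146, 162, 200.2 and 117 CPM against 131, 152, 177 and 97.8 CPM. TUBA1A thus lay below its control in siFOXM1 and above the same control libraries in siMYBL2.

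The siMYBL2 and siFOXM1 comparisons share their control libraries, so the difference between the 2 knockdowns was tested directly across all 24 libraries. It passed for 7 of 10 members, where 25.3% of 17752 genes passed in either direction. TUBA1B was lower in siMYBL2 than in siFOXM1 by a log2 difference of -0.87 ± 0.13 (edgeR adjusted p = 2.86e-05) and TUBA1C by -0.82 ± 0.15 (adjusted p = 0.00040). TUBA4A (-0.60, adjusted p = 0.041), TUBB (-0.45, 0.00056) and TUBB4B (-0.36, 0.030) were lower as well. TUBB2B was higher in siMYBL2 by 0.83 ± 0.23 (edgeR adjusted p = 0.0091) and TUBA1A by 0.46 ± 0.10 (adjusted p = 0.0016). TUBB6 had a log2 difference of -0.41 and an adjusted p of 0.052. TUBB6 passed as well with the replicate block (edgeR adjusted p = 1.265e-06), which made 8 of 10 members, where 42.0% of genes passed. TUBB2A and TUBB3 did not pass in either fit.

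When both factors were depleted, TUBA1C and TUBA1B again fell and TUBA1A rose. By edgeR, 3 of 10 members were lower, where 7.77% of 15812 genes were, and 1 of 10 higher, where 4.55% were. TUBA1B and TUBA1C passed a fold change of 1.5 too, as 6.44% of genes did in either direction. TUBA1C was at 210.0, 211 and 181 CPM in siBoth and at 355, 412 and 351 in siControl_Both, a log2 fold change of -0.89 ± 0.10 (edgeR adjusted p = 0.0019). TUBA1B was at 223, 252 and 221 CPM against 365, 418 and 348 CPM, or -0.70 ± 0.10 (edgeR adjusted p = 0.0050). For both genes the groups lay well apart, with no overlap, and both passed in each of the 6 fits without 1 library.

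TUBA1A was at 268, 298 and 277 CPM in siBoth and at 208, 219 and 225 CPM in its control. It rose by a log2 fold change of 0.37 ± 0.08 (edgeR adjusted p = 0.025), with no overlap. It kept an adjusted p under 0.05 in 2 of 6 fits without 1 library, with adjusted p-values of 0.047 to 0.082. TUBB was at 786, 793 and 827 CPM against 1043, 1133 and 1061 CPM, a log2 fold change of -0.43 ± 0.08 (edgeR adjusted p = 0.016). TUBB4B was at 337, 409 and 310.0 CPM against 477, 557 and 428 CPM. Those groups did not overlap either, but its log2 fold change of -0.47 ± 0.14 had an edgeR adjusted p of 0.057 (0.0092 by DESeq2). TUBB6 (-0.40, adjusted p = 0.12), TUBB2B (0.41, 0.30), TUBB3 (-0.35, 0.28), TUBB2A (-0.14, 0.55) and TUBA4A (-0.08, 0.86) did not pass.

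With the replicate block, 5 of 10 members were lower in siBoth, where 18.5% of genes were, and 2 of 10 higher, where 16.3% were. The 3 that joined were TUBB4B (edgeR adjusted p = 4.99e-05), TUBB6 (0.00024) and, as higher, TUBB2B (0.0061). The siBoth effect was then set against the siMYBL2 effect, each relative to its own control. No member passed, where 0.304% of genes did, and none had an unadjusted p under 0.05. The log2 differences were 0.16 ± 0.23 for TUBA1C, 0.19 ± 0.20 for TUBA1B and 0.02 ± 0.15 for TUBA1A, so that differences of this size could not be resolved. With the replicate block TUBA4A differed, by 0.38 (edgeR adjusted p = 0.010), as 6.58% of genes did.

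With FDI-6, TUBA1B was among the members that fell, while TUBA1C was not lower. A difference of the FDI-6 effect from the siMYBL2 or siBoth effect was not tested. By edgeR, 5 of 10 members were lower, where 17.9% of 15240 genes were, and 0 of 10 were higher, where 21.0% were. None passed a fold change of 1.5, as 13.8% of genes did in either direction. TUBA1B was at 208, 199.9 and 213 CPM with FDI-6 and at 313, 267 and 301 in control_FDI6, without overlap, a log2 fold change of -0.51 ± 0.07 (edgeR adjusted p = 0.00021). TUBA1C was at 418, 369 and 339 CPM against 347, 332 and 331 CPM. Its groups overlapped, and its log2 fold change was 0.15 ± 0.07 (edgeR adjusted p = 0.12). TUBA4A was at 130.1, 116 and 103 CPM against 161, 162 and 164 CPM, or -0.48 ± 0.08 (edgeR adjusted p = 0.00078). TUBA1A was at 114, 92.1 and 103 CPM against 92.7, 90.5 and 87.9 CPM, a log2 fold change of 0.19 ± 0.08 (edgeR adjusted p = 0.092).

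TUBB4B was at 552, 712 and 641 CPM with FDI-6 and at 911, 909 and 884 CPM in the control, without overlap. Its log2 fold change was -0.51 ± 0.08 (edgeR adjusted p = 0.00058). TUBB was at 1134, 1014 and 933 CPM against 1302, 1228 and 1282 CPM, a log2 fold change of -0.31 ± 0.07 (edgeR adjusted p = 0.0040). TUBB6 was at 125, 148 and 133 CPM against 168, 169.5 and 158 CPM, or -0.29 ± 0.07 (edgeR adjusted p = 0.0094). TUBB2A (-0.36, adjusted p = 0.092), TUBB2B (-0.15, 0.47) and TUBB3 (-0.11, 0.76) did not pass. A correction for GC content and length moved TUBB4B to -0.16 (edgeR adjusted p = 0.025), TUBA4A to -0.31 (0.0096) and TUBB6 to -0.08 (0.25), and it left TUBA1B at -0.40 (5.90e-05) and TUBB at -0.25 (0.0069). Under it TUBA1A, at 0.26 (adjusted p = 0.010), and TUBA1C, at 0.18 (adjusted p = 0.044), passed as higher. In all, 2 of 10 members were then higher and 4 of 10 lower, where 2468 and 2843 of 15240 genes were. The median log2 fold change over the members moved from -0.30 to -0.08 with the correction, and over all genes tested from -0.01 to -0.02.

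The FDI-6 effect was also set against the siFOXM1 effect. No member passed by edgeR, where 20.0% of genes did, although TUBA1B and TUBB had an unadjusted p under 0.05. The log2 difference was -0.48 ± 0.20 for TUBA1B (adjusted p = 0.087), -0.64 ± 0.32 for TUBA4A (adjusted p = 0.17) and 0.39 ± 0.23 for TUBA1C (adjusted p = 0.25). With the replicate block, 6 members differed, where 37.7% of genes did. TUBA1B, TUBA4A, TUBB and TUBB4B were lower with FDI-6, and TUBA1A and TUBA1C were higher. That fit blocked the FDI-6 and control_FDI6 libraries by number as well. Their same-numbered libraries did not deviate together (correlations of -0.288 to 0.161).

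**Figure D3:**
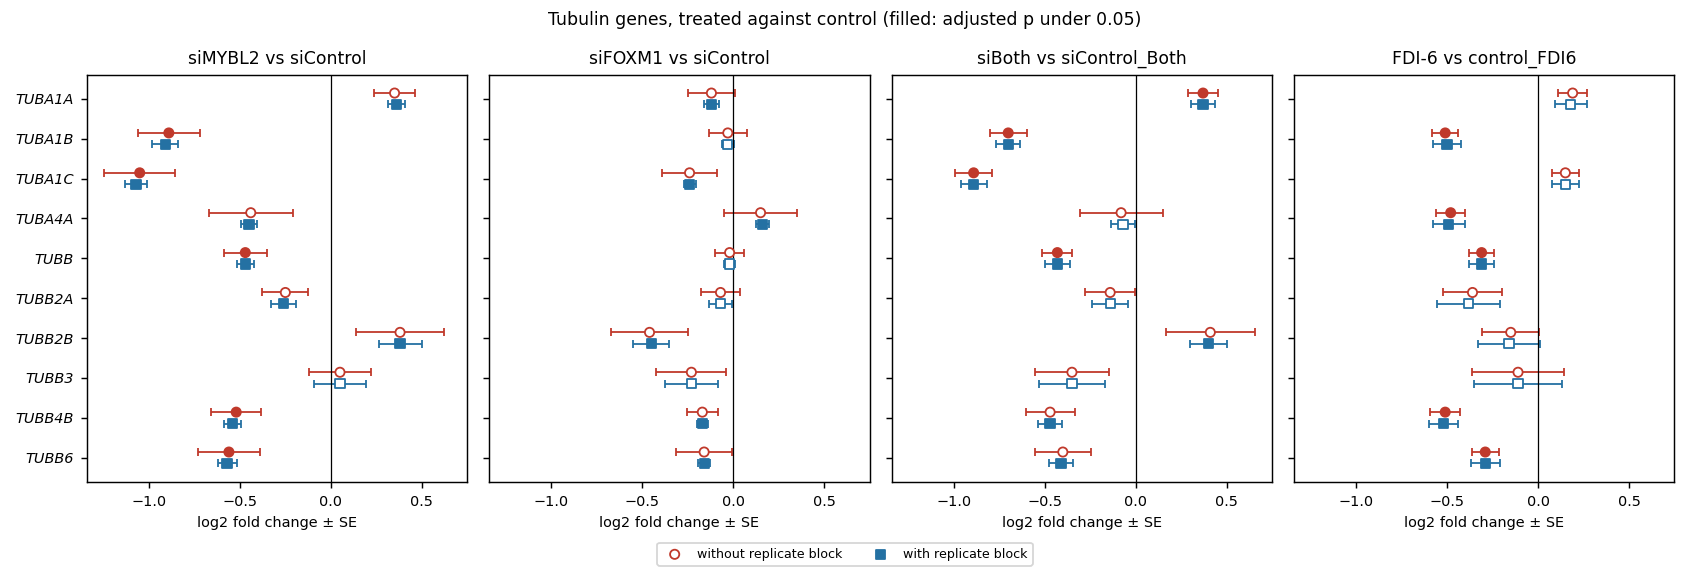
Log2 fold changes ± SE (horizontal axis) of the 10 members are given for the 4 comparisons, without (red circles) and with (blue squares) the replicate block, and filled symbols passed an adjusted p of 0.05. TUBA1C is at -1.05 in siMYBL2 and -0.89 in siBoth but at 0.15 with FDI-6, while TUBA1A is above 0 in these 3 comparisons.

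The make-up of the alpha-tubulin transcripts was read next. As a percent of the summed alpha CPM per kb, TUBA1A held 40.8 ± 5.82 (SD, n = 4) in siMYBL2 and 23.3 ± 3.51 in siControl, with ranges of 33.0 to 45.3 and 19.3 to 26.3 that did not overlap. TUBA1C held 17.9 ± 2.25 against 27.5 ± 1.70 and TUBA1B 21.2 ± 2.61 against 29.1 ± 0.98. Scaled by windows found once, TUBA1B held the largest alpha share in both groups, at 41.2 ± 3.87 in siMYBL2 against 52.5 ± 1.24. Its share is overstated on that scale if HTSeq used strand, which is not known here. On that scale TUBA1A held 32.2 ± 5.20 against 17.0 ± 2.57 and TUBA1C 11.6 ± 1.14 against 16.4 ± 1.02, so the sizes of these 3 shares depend on the scaling, while their directions did not turn. In siFOXM1, TUBA1A held 22.4 ± 2.90, within the range of the control. In siBoth it held 33.7 ± 2.07 against 20.2 ± 2.13 (n = 3), again without overlap. With FDI-6, TUBA1A held 13.4 ± 0.90 against 10.5 ± 0.39 and TUBA1C 42.0 ± 1.71 against 33.6 ± 0.80, while TUBA1B held 28.96 ± 2.23 against 36.4 ± 1.72. These shares are a description and were not tested.

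The beta-tubulin make-up moved less in siMYBL2, where TUBB held 41.5 ± 1.48 against 40.6 ± 1.58 percent and TUBB4B 50.6 ± 1.23 against 51.9 ± 1.57. TUBB2B, of low level, held 0.81 ± 0.12 against 0.45 ± 0.11 percent in siMYBL2 and 1.13 ± 0.27 against 0.63 ± 0.12 in siBoth. The summed alpha level was 136 ± 22.6 CPM per kb in siMYBL2 and 186 ± 25.0 in siControl, and the summed beta level was 355 ± 60.5 against 499.7 ± 46.3. With both factors depleted, the sums were 218 ± 17.9 against 283 ± 25.2 for alpha and 405 ± 28.3 against 546 ± 47.8 for beta. With FDI-6 they were 200.5 ± 14.3 against 225 ± 8.35 for alpha and 607 ± 33.3 against 807 ± 12.4 for beta.

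**Figure D4:**
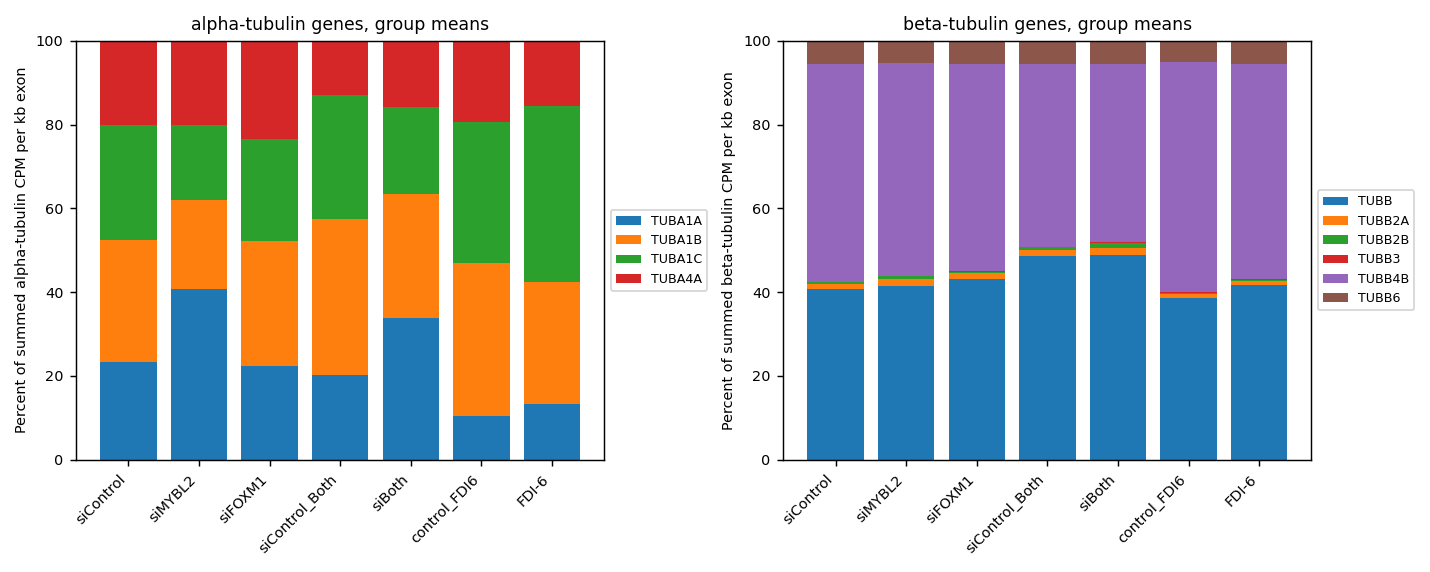
Stacked bars give each member's mean percent (vertical axis) of the summed alpha-tubulin (left) or beta-tubulin (right) CPM per kb of exon in each group. TUBA1A takes 40.8% in siMYBL2 against 23.3% in siControl, and TUBB and TUBB4B make up most of the beta total in each group.

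Across the 24 libraries, each taken relative to the mean of its own control group, TUBA1B moved most like TUBB (Pearson r = 0.95), TUBB4B (0.90) and TUBB6 (0.868) among the members. TUBA1A and TUBB2B had an r of 0.604 with each other, and TUBA1A had an r of -0.671 with TUBA1B. TUBB3 was below the 100 counts needed here. Among 11369 genes, those nearest to TUBA1B were TIMM22 (r = 0.965), XRCC6 (0.963) and MRPL21 (0.953). Nearest to TUBA1C were NUP188 (0.964), MTHFD1L (0.963) and ETF1 (0.958), and nearest to TUBB were CDCA3 (0.958) and PLK1 (0.953). TUBB4B was nearest to the histone gene H2AX (0.968), TK1 (0.931) and TRMU (0.93), and TUBB6 to RCC1 (0.948), WDR62 (0.939) and MRTO4 (0.937). For the others the values were lower. TUBA1A was nearest to ARNT2 (0.903), C6orf141 (0.897) and ADGRE1 (0.891), TUBA4A to KRT80 (0.89), ENSG00000276850 (0.889) and CHAC2 (0.869), TUBB2A to FSTL3 (0.896), TOMM40 (0.894) and TEDC1 (0.889), and TUBB2B to LIMD2 (0.929), LLGL1 (0.919) and CBARP (0.881). These correlations share libraries and control means and are given as a description.

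Other genes of tubulin biology were read from lists. Their counts stand beside the share of all genes tested that passed, which was 9.53% lower and 8.53% higher in siMYBL2, 1.09% and 0.277% in siFOXM1, 7.77% and 4.55% in siBoth, and 17.9% and 21.0% with FDI-6. Of 8 further alpha- and beta-tubulin genes, 3 to 5 were tested per comparison. TUBAL3 was higher in siMYBL2, at 1.31 ± 0.291 against 0.548 ± 0.236 CPM (log2 fold change 1.26, edgeR adjusted p = 0.027). TUBB4A, a beta-tubulin of brain, was lower with FDI-6, at 9.40 ± 1.19 against 17.0 ± 0.919 CPM (-0.86, adjusted p = 0.00025). None passed in siFOXM1 or siBoth. Of 13 genes for gamma-, delta- and epsilon-tubulin and the gamma-tubulin ring complex, which nucleates microtubules, 3 were lower and 1 higher in siMYBL2, 1 lower in siFOXM1, 2 lower and 1 higher in siBoth, and 7 lower and 3 higher with FDI-6. The count of higher genes with FDI-6 is near the 21.0% of all genes. TUBG2 was higher in siMYBL2 (0.38, edgeR adjusted p = 0.033) and siBoth (0.52, 0.013) but lower with FDI-6 (-0.49, 0.0026). TUBG1 was lower in siBoth (-0.37, adjusted p = 0.028), MZT1 in siMYBL2 (-0.29, 0.032), siFOXM1 (-0.59, 0.044) and siBoth (-0.70, 0.015), and TUBGCP3 in siMYBL2 (-0.38, 0.0086). With FDI-6, TUBE1 (0.63, adjusted p = 0.0016) and NEDD1 (0.36, 0.0075) were higher and MZT2A was lower (-0.51, 0.0035).

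Among the folding genes, 1 of 8 CCT chaperonin subunits was lower in siMYBL2, TCP1 (-0.28, edgeR adjusted p = 0.023), none passed in siFOXM1 or siBoth, and 2 were lower with FDI-6, CCT7 (-0.33, 0.00060) and CCT3 (-0.21, 0.0069). With the replicate block, 7 of 8 CCT genes were lower in siMYBL2, where 23.1% of all genes were, by log2 fold changes of -0.28 to -0.09. Of 6 prefoldin subunits, VBP1 was lower in siMYBL2 (-0.65, adjusted p = 0.0022) and siBoth (-0.73, 0.021), and PFDN6 (-0.86, 0.0039) and PFDN5 (-0.31, 0.0028) with FDI-6. Of 7 tubulin folding cofactors, 0 passed in siMYBL2. TBCEL was lower in siFOXM1 (-0.87, adjusted p = 0.0087), at 9.46 ± 1.39 against 17.3 ± 0.807 CPM, TBCE was lower (-0.69, 0.028) and ARL2 higher (0.35, 0.030) in siBoth, and 4 were lower with FDI-6, among them ARL2 (-0.43, 0.014), TBCD (-0.41, 0.00058) and TBCA (-0.39, 0.0046). Of 12 genes of tubulin mRNA autoregulation, which holds the adaptors and the CCR4-NOT deadenylase that remove tubulin mRNA, CNOT3 was lower in siMYBL2 (-0.59, adjusted p = 0.0015), CNOT6L (-0.59, 0.031) and CNOT1 (-0.35, 0.024) in siBoth, and 4 were higher with FDI-6, among them CNOT6L (0.52, 0.0019), SCAPER (0.43, 0.0068) and CNOT6 (0.40, 0.0016). No gene of that list passed in siFOXM1.

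Of 20 enzymes that modify tubulin tails and lysines, 5 were higher and 3 lower in siMYBL2, 3 higher and 2 lower in siBoth, 1 higher and 4 lower with FDI-6, and none passed in siFOXM1. With FDI-6 the count of lower genes is near the 17.9% of all genes. TTL, which adds the terminal tyrosine to alpha-tubulin, was lower in siMYBL2 (-0.32, edgeR adjusted p = 0.029) and siBoth (-0.48, 0.0063). TTLL3, a glycylase, was higher in both (0.92, 0.0014 and 0.72, 0.026), and VASH1, which removes the tyrosine, was higher in siMYBL2 (0.62, 0.0089). SIRT2, a tubulin deacetylase, was higher in siBoth (0.61, edgeR adjusted p = 0.0038) and in siMYBL2 (0.48, 0.0104). TTLL6, a polyglutamylase, was lower with FDI-6 (-0.90, 0.00079). Of 18 tested regulators of microtubule dynamics, 4 were lower and 2 higher in siMYBL2, 7 lower and 2 higher in siBoth, 3 lower and 6 higher with FDI-6, and none passed in siFOXM1. The counts of 3 lower with FDI-6 and 2 higher in siMYBL2 are near the 17.9% and 8.53% of all genes. MAP1S, a microtubule-associated protein, was lower in siMYBL2 (-1.12, adjusted p = 0.00042) and siBoth (-0.65, 0.015). MAPRE3, an end-binding protein, was higher in both (0.49, 0.0024 and 0.83, 0.018). With FDI-6, MAP1B rose by a log2 fold change of 0.85 (adjusted p = 3.44e-06), from 141 ± 7.91 to 255 ± 10.1 CPM, and STMN1, which sequesters tubulin dimers, was lower (-0.42, 0.00064). The list medians lay between -0.31 and 0.26, against -0.01 to 0.02 over all genes tested.

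**Figure D5:**
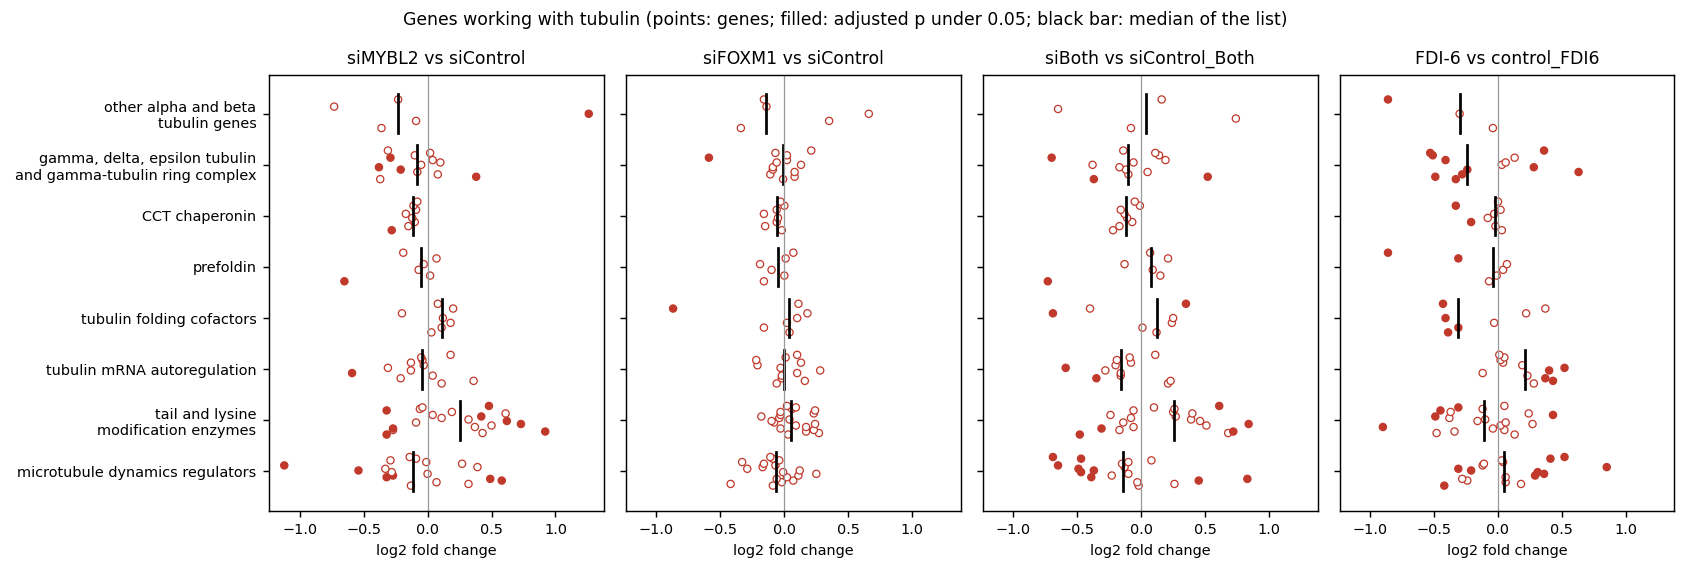
Each point is the log2 fold change (horizontal axis) of a gene in 1 of 8 lists (rows) in the 4 comparisons, filled where it passed an adjusted p of 0.05, with a black bar at the list's median. The medians lie between -0.31 and 0.26, and few genes are filled in siFOXM1.

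Markers of other cell types were read because TUBB3 and TUBA1A are also neuronal genes. Of 7 neuron markers, ELAVL4, NEFM and DCX stayed under 1 CPM in each library, while SNAP25 was at 19.5 to 113 and SYT1 at 15.0 to 97.9 CPM. Their summed level was 140 to 167 CPM in siMYBL2 and 97.0 to 159 in siControl, 83.5 to 144 in siFOXM1, 111 to 177 in siBoth and 97.7 to 143 in siControl_Both, and 71.4 to 78.3 with FDI-6 against 67.8 to 70.8. The 7 epithelial markers were lower in sum in siMYBL2, at 8968 to 13247 against 14664 to 18766 CPM, in siBoth, at 6947 to 9108 against 9985 to 14670, and with FDI-6, at 12498 to 13013 against 18111 to 18930. In siFOXM1 they were at 13843 to 18225 CPM. These sums are carried by the abundant genes. Over the libraries, ALDH1A1, KRT8 and AKR1B10 had medians of 6188, 3624 and 2536 CPM, against 165 for KRT19 and 30.2 for CDH1. Whether each epithelial marker fell was not tested. The 6 fibroblast markers summed to 6.55 to 60.2 CPM and the 6 leukocyte and endothelial markers to 0 to 4.18 CPM. Among them, COL1A1 was at 4.91 to 58.8 CPM, COL3A1 reached 7.02, LUM 3.54, PECAM1 2.81 and CDH5 2.09 CPM, while COL1A2, DCN, PDGFRB, PTPRC, CD3E and CD68 were each under 1 CPM in every library. Of the neuron list, RBFOX3 was at 4.27 to 27.6 and NEFL at 1.82 to 8.85 CPM. The part of these shifts in the tubulin changes was not tested.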

How the data were processed

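A549 RNA was captured by polyA and sequenced as 150 bp paired-end reads. Per the submitters' processing notes and methods, reads were trimmed with Trim Galore, aligned to hg38 with STAR (GENCODE V29) and counted per gene with HTSeq. The deposited values are raw counts, 1 table per library. HTSeq's 5 summary rows per table were left out of library sizes. Pairs not unique took 2.29% to 4.14%, ambiguous pairs 7.88% to 11.2% and pairs not aligned 1.73% to 10.9%. Ambiguous pairs took 9.78% to 10.5% with FDI-6 and 10.7% to 11.2% in control_FDI6, without overlap, and the part of this was not tested. Versions and the strand setting are not given in the sources used here. Of the gene identifiers, 58252 matched GENCODE V44 and 469 did not.

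Groups followed the labels. edgeR 4.0.16 (R 4.3.3; TMM scaling, filterByExpr, quasi-likelihood test) compared each treatment with its own control over all genes, with Benjamini-Hochberg adjustment; a member passed at an adjusted p under 0.05, and the stricter call also needed a fold change over 1.5. Differences between effects used 1 fit of 24 libraries. The scripts were tested on simulated data. The replicate numbers pair the siRNA libraries: same-numbered libraries deviated together from their group means (correlations of 0.539 to 0.906 in the first experiment and 0.553 to 0.688 in siBoth), whereas the FDI-6 libraries did not (-0.288 to 0.161). The labels do not say what a number shares. No libraries were near-identical. The study states at least 3 biological replicates, while the labels say only that RNA was extracted in replicates, so p-values may measure technical spread.

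Alternatives were DESeq2 1.42.0, other scalings and filters, GC and length correction, a replicate block and leaving out each library. The genes named were the members, the 2 targets, at most 3 genes per direction from each list with the largest log2 fold change among those past the threshold, and the 3 genes most correlated with each member. Some genes that this rule or the marker lists name are not reported here. The members and lists were chosen with earlier results of these data known. Promoters came from RefSeq (GRCh38.p14); all 10 members matched, and the start nearest the canonical GENCODE V44 transcript was used.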

Additional observations from a re-analysis of the deposited data

Results flagged for a closer look

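The siMYBL2 and siFOXM1 effects differed by a direct edgeR test in 7 of 10 members, where 25.3% of 17752 genes passed. The same siControl libraries stood behind both effects. The log2 differences (siMYBL2 minus siFOXM1) were -0.87 for TUBA1B, -0.82 for TUBA1C, -0.60 for TUBA4A, -0.45 for TUBB and -0.36 for TUBB4B, and 0.46 for TUBA1A and 0.83 for TUBB2B. TUBA1A and TUBB2B were above siControl in 4 of 4 same-numbered pairs in siMYBL2. In siFOXM1, TUBA1A was below it in 3 of 4 pairs and TUBB2B in 4 of 4.

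A single library stood apart in 1 of 30 sets of 4 libraries examined: TUBB2A in siFOXM1 replicate 4 was at 15.3 CPM, against 18.6 to 19.2 CPM in the other 3 libraries of its group. Chance flags about 1 in 20 such sets. Replicate 4 was also the lowest library for TUBB2A in siMYBL2, at 13.03 CPM, and in siControl, at 16.95 CPM. Over all genes, replicate 4 lay furthest from the rest of its group in this experiment. The chi-square distance of counts per gene was 28.3 to 62.8 for pairs with replicate 4, against 11.2 to 21.6 among replicates 1 to 3.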

How the results depend on the processing

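Directions held for each member that passed, under each alternative run. The counts of members past an adjusted p of 0.05 moved most with the replicate block: from 5 to 9 in siMYBL2, 0 to 6 in siFOXM1, 4 to 7 in siBoth, and, for differences of effects, 7 to 8 (siMYBL2 against siFOXM1), 0 to 1 (siBoth against siMYBL2) and 0 to 6 (FDI-6 against siFOXM1). With the block, shares over all genes rose too. In siMYBL2, 23.1% were lower and 23.6% higher, against 9.53% and 8.53% without it. In siFOXM1 these were 14.0% and 12.3% against 1.09% and 0.277%, and in siBoth 18.5% and 16.3% against 7.77% and 4.55%. For the 3 differences of effects, 42.0%, 6.58% and 37.7% passed, against 25.3%, 0.304% and 20.0%. In siBoth, GC and length correction alone gave 6 in place of 4, as TUBB4B (-0.63, edgeR adjusted p = 0.011) and TUBB6 (-0.53, 0.041) passed as lower. Over all genes, 1150 of 15812 were lower and 777 higher in that fit. A fit without the filter on low counts gave 6 in siBoth too, where 1672 of 31695 genes were lower and 1240 higher. The replicate block with GC and length correction gave 9, 6 and 9 in the 3 knockdowns. Calls over all genes rose with it too. In siMYBL2, 3807 of 16065 genes were lower and 3838 higher. In siFOXM1 the counts were 2145 and 2227 of 15892, and in siBoth 2857 and 2890 of 15812. For FDI-6, 1 fit of all 24 libraries gave 3 in place of 5, with TUBA4A (edgeR adjusted p = 0.16) and TUBB6 (0.24) lost. Over all genes, that fit had 2110 of 17752 lower and 2722 higher. Without 1 library, counts ranged from 2 to 5 in siMYBL2 and 2 to 4 in siBoth. In siMYBL2, leaving out siMYBL2 replicate 1, siControl replicate 2 or siControl replicate 3 left 2, and leaving out siControl replicate 1 left 3. In siBoth, leaving out siControl_Both replicate 2 or 3 left 2. Calls over all genes fell in both directions in each of the fits that left 2 or 3. Without siMYBL2 replicate 1, 942 of 16433 genes were lower and 690 higher, against 1531 and 1371 of 16065 in the main fit. Upper-quartile scaling gave 5 members in siMYBL2, without TUBB6 (adjusted p = 0.062) and with TUBA1A, and 5 in place of 7 for the siMYBL2 and siFOXM1 difference. Calls over all genes shifted with this scaling. In siMYBL2, 1215 of 16065 genes were lower and 1771 higher, against 1531 and 1371 by TMM. For the difference, 1795 of 17752 were lower and 2764 higher, against 2313 and 2179.

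Signs turned only for members that had not passed. Under GC and length correction with FDI-6, TUBB2B became 0.02 and TUBB3 0.09, or 0.01 and 0.11 with the replicate block as well. Without 1 library, log2 fold changes ranged from -0.27 to 0.01 (TUBB2B) and -0.31 to 0.07 (TUBB3) with FDI-6, -0.05 to 0.14 (TUBB3) in siMYBL2, -0.29 to 0.09 (TUBA4A) in siBoth, and -0.11 to 0.03 (TUBA1B), -0.07 to 0.05 (TUBB) and -0.12 to 0.01 (TUBB2A) in siFOXM1. The TUBA1A share in siFOXM1 lay -2.29 to 0.07 percentage points from control without 1 library; its rise in siBoth was 10.62 in place of 13.52 percentage points when scaled by windows found once. The causes were not tested. TUBB3 had the fewest read pairs, 40 to 144 a library.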
